A study of Mus musculus with 4 samples.

Results

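Cadherins and protocadherins are adhesion proteins of the cell surface, and the regions described here are the Zeb1-bound regions (peaks) that a list of Zeb1 peaks in mouse embryonic stem cells assigned to their genes. A peak was taken when its assigned gene symbol began with Cdh followed by a digit or with Pcdh, leaving out Cdh1 (E-cadherin) and Cdh5 (VE-cadherin). The rule took 108 of the 17435 peaks. They named 55 of the 91 genes of this family in the reference annotation, a share of 60.4% (95% Wilson interval 50.2 to 69.9%), beside 53.3% of 21000 protein-coding genes named by at least 1 peak. A peak centred within 5 kb of a transcription start site (TSS), the authors' definition of a promoter peak, was present for 45 of the 91 genes, or 49.5% (39.4 to 59.5%), beside 45.1% of the protein-coding genes. The intervals of both shares include the share over all genes, so neither count is a result about the family. The pooled share joins 27 of 33 genes outside the protocadherin clusters (81.8%, 65.6 to 91.4%) and 28 of 58 clustered genes (48.3%, 35.9 to 60.8%). With promoter peaks alone, the genes outside the clusters were at 54.5% (38.0 to 70.2%), an interval that includes the share over all genes. Within 1 kb of the TSS the family was lower, with 19 of 91 genes (20.9%, 13.8 to 30.3%) beside 41.1% of protein-coding genes. The difference lay in the clustered genes, at 10.3% (4.83 to 20.8%), while the genes outside the clusters were at 39.4% (24.7 to 56.3%).

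Zeb1 was mapped by chromatin immunoprecipitation followed by sequencing (ChIP-seq) in D3 mESC, an established mouse embryonic stem cell line, in 3 Zeb1 ChIP libraries and 1 input library, made from chromatin without the antibody. The cells grew without serum in the medium GS, which holds 1 μM PD0325901 (a MEK inhibitor), 3 μM CHIR99021 (a GSK-3 inhibitor) and 20 ng per mL LIF, and no other culture condition was analysed here. The authors joined peaks into 1 list when 2 or more of the 3 libraries had them, and gave each the mean number of treatment reads, the mean number of input reads and the mean enrichment over input, normalized for mapped reads. According to their methods, the reads were brought to the same depth and the values of each sample were then averaged. Many printed read values are nevertheless whole numbers, or whole numbers divided by numbers other than the number of libraries, and how these arose is not clear. Values per library are not part of the list, so no SD accompanies a peak, and intervals of shares cover counting error only.

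Classical cadherins join neighbouring cells by binding the same kind of cadherin across the cell border, and are tied to actin through catenins; type I and type II members differ in their adhesive interface. Protocadherins have more extracellular repeats and are best known from the nervous system, where the alpha, beta and gamma clusters give each neuron its own set of surface proteins through the choice among many variable exons. Zeb1 is a zinc finger repressor that binds E-box sequences and is best known for silencing E-cadherin when epithelial cells become mesenchymal.

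The motif searched was C or T, any base, C or T and then ACCTG, on both strands. The match nearest to the peak centre is shown for the promoter peaks of the genes described in full below, because these are the sequences under the peaks closest to the start of each gene. No match is shown for Cdh2 or for the clustered genes. Of the 11 peaks considered, 10 held a match, and the Pcdh17 peak held none. Over all promoter peaks of the list, 76.8% held a match. Sequences were read from the mm10 assembly (GRCm38.p6) and are written 5′ to 3′ on the strand that reads ACCTG, with the match in capitals. On either side 20 bases are shown, or 11 where the longer window overlaps an untranslated region (UTR), which the shorter window can overlap as well.
Cdh3 (chr8:106510836-106510865, plus strand): agctacctgagCGCACCTGgcctcctcccg
Cdh4 (chr2:179442396-179442425, plus strand): cgccgctcagcTTCACCTGcagttccgagc
Cdh15 (chr8:122848507-122848554, minus strand): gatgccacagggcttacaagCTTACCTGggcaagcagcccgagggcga
Cdh8 (chr8:99415959-99416006, minus strand): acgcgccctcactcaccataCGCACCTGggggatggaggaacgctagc
Cdh11 (chr8:102784880-102784909, plus strand): gagcagagcgcCTCACCTGgggccgttgcg
Cdh13 (chr8:118283876-118283923, minus strand): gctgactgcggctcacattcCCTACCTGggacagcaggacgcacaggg
Pcdh7 (chr5:57718102-57718131, minus strand): ccgtgccttccCTCACCTGcattcggcccg
Pcdh8 (chr14:79769819-79769866, plus strand): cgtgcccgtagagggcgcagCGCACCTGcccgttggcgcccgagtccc
Pcdh10 (chr3:45380406-45380453, minus strand): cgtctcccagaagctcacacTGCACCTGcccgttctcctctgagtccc
Pcdh19 (chrX:133687759-133687788, plus strand): cgcgcagtctgTGCACCTGgcatgcgcaag
The match lay over the border of exon 1 and intron 1 in Cdh11, Cdh13 and Cdh15. In Cdh3 it lay across the TSS and in Cdh4 21 bp upstream of it. In Pcdh7 it lay 35 bp downstream of the TSS, in the 5′ UTR. In Pcdh8 and Pcdh10 it lay in the coding part of exon 1, at 1470 and 2031 bp. The E-box CACCTG was part of 8 of the 10 matches. A match describes the letters under a peak and does not show where Zeb1 was bound.

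All 4 type I cadherins inside the rule had a promoter peak (100%, 51.0 to 100%), beside 45.1% of all protein-coding genes, a count too small to be a result about the group. Cdh2, or N-cadherin, the cadherin of neural and mesenchymal cells, had its promoter peak at chr18:16806251-16809900 in intron 1, 974 bp downstream of the TSS, with 88.2 treatment and 18.4 input reads and an enrichment of 8.84. Cdh4, or R-cadherin, known from the retina, was bound at chr2:179441751-179444150, 472 bp downstream in intron 1, with 79.8 and 16.2 reads and an enrichment of 9.76. Cdh3, or P-cadherin, an epithelial and placental cadherin, had a peak at chr8:106510101-106512450, centred in exon 2 at 423 bp, with 104.8 and 34.6 reads and an enrichment of 6.4. Cdh3 is the neighbour of Cdh1. The Cdh1 peak, outside the rule, held 122.8 treatment and 43.4 input reads with an enrichment of 5.78 at 357 bp, and 90.1 kb separated it from the Cdh3 peak. The neighbours were thus bound at the same side of their start sites and at near values of enrichment.

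Cdh15, or M-cadherin of skeletal muscle, was among the genes with the most peaks. Its promoter peak at chr8:122847601-122850050 had an enrichment of 6.95 from 33 treatment and 12 input reads. A further 4 peaks followed downstream: in intron 5 at chr8:122860301-122862250 (enrichment 5), over exon 11 at chr8:122862751-122867450 (enrichment 6), and beyond the end of the gene at chr8:122869901-122871350 (enrichment 8.08) and chr8:122889101-122891100 (enrichment 7.35). The last of these was centred in the neighbouring gene Ankrd11, so its assignment to Cdh15 follows from the distance between start sites. None of the Cdh15 peaks was centred on a retrotransposon. Cdh2 had a second peak in intron 2, at chr18:16705751-16706800, which was centred on an L1 element and held 23.5 treatment and 25 input reads with an enrichment of 2.3, near the authors' minimum of 2.

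Of the 12 type II cadherins, 10 had a peak (83.3%, 55.2 to 95.3%), beside 53.3% of all protein-coding genes, and 5 a promoter peak (41.7%, 19.3 to 68.0%), beside 45.1%. Cdh8 and Cdh11 each combined a promoter peak with 1 much stronger distal peak and several weaker ones or ones of the same level. Cdh11, or OB-cadherin of mesenchymal and bone-forming cells, was bound at chr8:102783301-102785900, 511 bp downstream of the TSS, with 77 and 17.5 reads and an enrichment of 9.7. Its highest peak, at chr8:102147001-102149200, lay 637 kb downstream of the TSS on an L1Md_T element, with 105.4 and 13 reads and an enrichment of 18.5. Its other 3 peaks were also centred on L1 elements: chr8:101710151-101711650 had an enrichment of 9.74, chr8:101879801-101880900 of 2.45 and chr8:102368451-102369650 of 2.55. The last held 124 treatment reads, but also 119 input reads.

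Cdh8, a cadherin of developing brain circuits, had a promoter peak at chr8:99414851-99417200 (446 bp; 70.8 and 14 reads; enrichment 10.5). At chr8:99465701-99467800, 50.3 kb upstream of the TSS in A330008L17Rik, an L1Md_T element carried 188.4 treatment reads over 18.8 input reads and an enrichment of 22.3. The Ensembl annotation in the list places this peak, and a peak 253 kb upstream, in intron 1 of the gene it also names for the Cdh8 promoter peak. The other 4 peaks named for Cdh8 lay 253 to 1574 kb upstream, 2 on L1 and 2 on IAPEz elements, with enrichments of 4.2 to 5.95. Cdh20 had the most peaks of the family, 7, and no promoter peak. Its highest, at chr1:103000051-103001600, lay 1768 kb upstream on an L1Md_T element, with 45.5 and 6.5 reads and an enrichment of 13.7. Of the remaining 6, the peak at chr1:104993301-104994900 was centred in coding exon 12 of 12 (43.7 and 11.9 reads; enrichment 7.63). Upstream of the gene, chr1:103418751-103420300 had an enrichment of 6.04, chr1:103478401-103480450 of 3.8, chr1:104097001-104098750 of 6.85 and chr1:104268051-104270000 of 3.04, and downstream of it chr1:105026351-105027850 had 11.98. Those 5 peaks were centred on retrotransposons.

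The other type II genes differed from each other in the kinds of peak they had. Cdh6, a kidney and neural crest cadherin, had a promoter peak of low enrichment (4.7) and 4 L1 peaks between 2.7 and 4.25. Cdh22 was bound in intron 1 close to the TSS (enrichment 8.64), farther along intron 1 (3) and in coding exon 2 (10.5), and Cdh24 in both a region 611 bp upstream of its TSS (5.76) and in exon 2 (5.3). Cdh7, Cdh9, Cdh12 and Cdh19 had only L1 peaks, 8 in all, at enrichments of 2.2 to 7.24. Cdh10 and Cdh18 had no peak. Over the 36 type II peaks, 24 were distal and centred on a LINE, or 66.7% (50.3 to 79.8%), against 14.1% (13.6 to 14.6%) of the whole list.

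Among the remaining cadherins, Cdh13 and Cdh23 had a promoter peak. Cdh13, or T-cadherin, is held in the membrane by a lipid anchor. Its promoter peak at chr8:118283251-118285200 in intron 1, 470 bp from the TSS, had 49.6 treatment and 6.86 input reads and an enrichment of 16.04, the sixth highest of the family. A second Cdh13 peak lay 240 kb upstream (7.28). Cdh23, part of the tip link of hair cells, had 3 peaks in its introns 1, 2 and 7, at 4.74, 10.37 and 124.8 kb from the TSS. Their enrichments were 8.85, 9.16 and 9.45, and the intron 2 peak had 125.1 reads. Cdh26 had an L1 peak 344 kb downstream (enrichment 6.3), and Cdh16 and Cdh17, expressed in kidney and intestine, had no peak.

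Of the 4 delta1 protocadherins, 3 had a peak (75%, 30.1 to 95.4%), and all 5 delta2 genes did (100%, 56.6 to 100%), beside 53.3% of all protein-coding genes. A promoter peak was present for 3 delta1 genes (75%, 30.1 to 95.4%) and 4 delta2 genes (80%, 37.6 to 96.4%), beside 45.1%. Pcdh8, also called paraxial protocadherin and expressed in the segmenting mesoderm, had the most treatment reads of the family, 236.6 against 34.1 input reads, at chr14:79767801-79771900. Its peak was 4100 bp long, had its centre in coding sequence of exon 1 at 1462 bp, and had an enrichment of 15.1. Pcdh17 was bound in the same part of its gene, at chr14:84445201-84448450, 3262 bp from the TSS in the coding part of exon 1, with 82.7 and 9.86 reads and an enrichment of 17.3. Its other 4 peaks were L1 peaks 1145 to 1969 kb upstream (3.3 to 6.4). Pcdh10, a protocadherin of forebrain axons, followed at chr3:45379451-45382150, 2402 bp from the TSS, with 65.9 and 15.6 reads and an enrichment of 9.27. In these 3 delta2 genes the peak centre thus lay in the large coding exon 1, although the Pcdh8 peak also reached over the TSS and covered most of this short gene (4.54 kb).

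Pcdh19, an X-linked gene mutated in a form of epilepsy, had its promoter peak at chrX:133685601-133690550, 918 bp from the TSS in the 5′ UTR, with 53.1 and 12.4 reads and an enrichment of 8.51, and 3 L1 peaks between 344 and 1123 kb downstream (2.5, 3.1 and 8.25). Pcdh7, a delta1 gene, was bound at chr5:57716601-57720550, 554 bp from the TSS, with 113.1 and 21 reads and an enrichment of 11.01. A second Pcdh7 peak lay 283 kb downstream on an L1Md_Gf element (5.87). Pcdh1 had 4 peaks with enrichments of 4.75 to 7.44, none on a retrotransposon, and Pcdh9 a peak 156 bp upstream of its TSS (7.45) and one on an L1Md_A element (2.93). Pcdh11x had no peak. Outside the delta groups, Pcdh15, which pairs with Cdh23 in the tip link, had an L1Md_T peak at chr10:73764301-73765950, 56.7 kb upstream of the TSS used in the list but inside the span of the Pcdh15 gene in the reference, with 50.5 and 4 reads and an enrichment of 25.1. Pcdh20 had 3 L1 peaks (2.4, 2.87 and 9.45), and Pcdh12, a vascular endothelial protocadherin, had none.

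**Figure D1:**
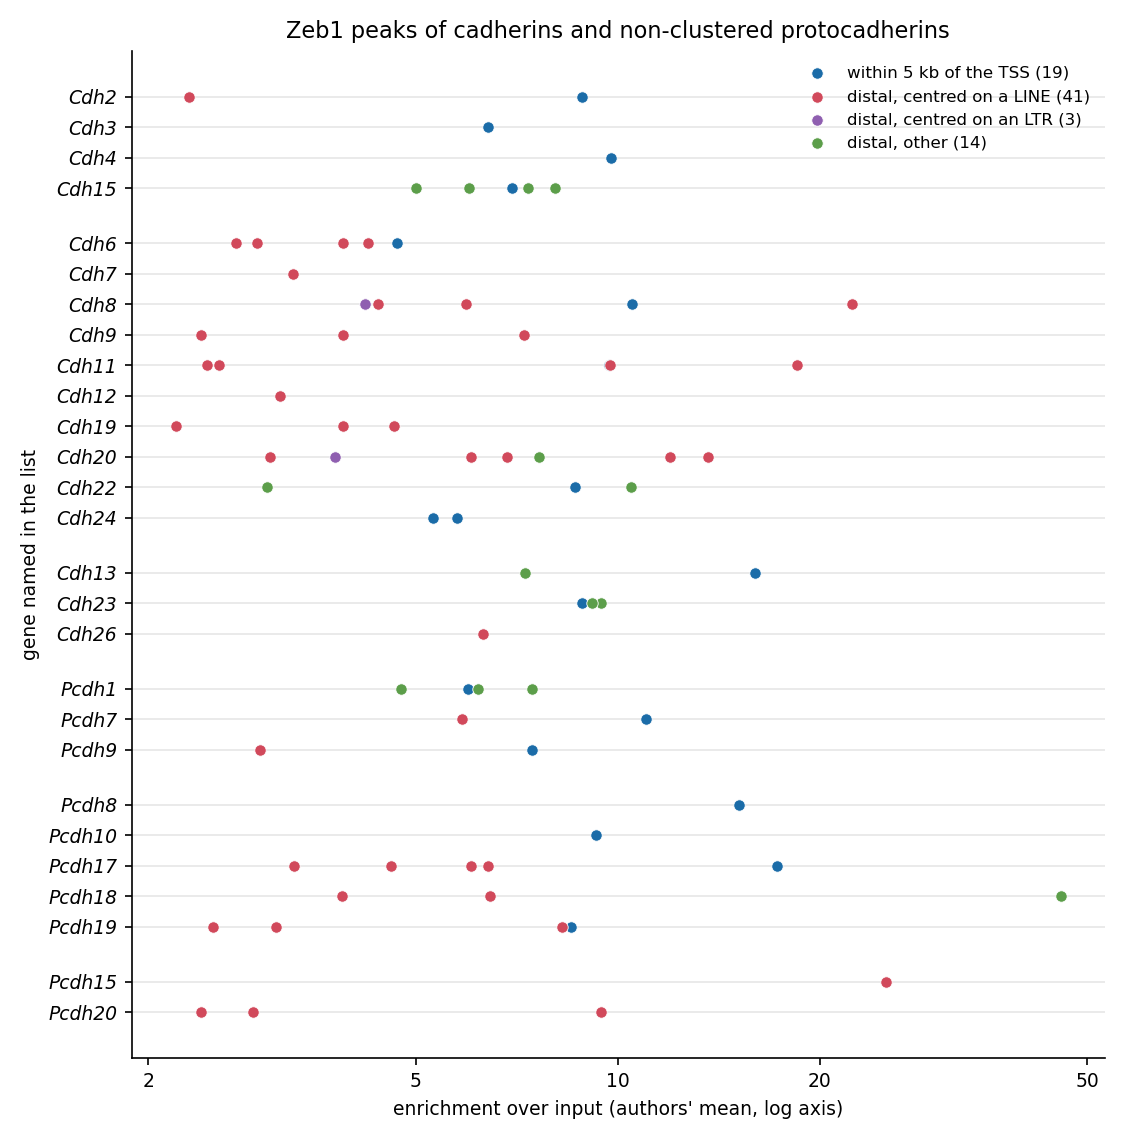
Enrichment over input (log axis) of the 77 peaks of cadherins and non-clustered protocadherins, 1 point per peak and 1 line per gene, grouped by subfamily and coloured by position; the promoter peaks lie between 4.7 and 17.3, and the distal LINE peaks between 2.2 and 25.1.

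The highest enrichment of all 108 peaks, 45.7, belonged to a region assigned to Pcdh18, a delta2 gene without a promoter peak. It lay at chr3:49821801-49823550, 65.4 kb upstream of the TSS, and held 36.5 treatment reads over 1.5 input reads, so the ratio rests on a very small input value. The list annotates its centre as intergenic and gives no repeat, yet 91.5% of its bases are masked as repeats in the reference, and 18.3% of its words of 31 bases occur once in the genome. Its single motif match is shown with 60 bases on either side (chr3:49821892-49822019, minus strand), because the sequence around it can be compared with those of the L1 peaks.
Pcdh18: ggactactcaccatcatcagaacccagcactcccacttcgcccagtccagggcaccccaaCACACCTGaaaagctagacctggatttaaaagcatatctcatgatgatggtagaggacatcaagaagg
Motif matches with 10 bases on either side were then compared among the distal LINE peaks, again without Cdh2 and the clusters. Of 25 such peaks with a match, 17 had the same 28 bases as at least 1 other. The 5 sequences found in 4 or more peaks are shown with the peak of highest enrichment that holds them, since they are the letters that peaks of different cadherin genes share.
Cdh8 (chr8:99467766-99467793, plus strand, in 5 peaks): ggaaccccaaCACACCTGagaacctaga
Cdh8 (chr8:99467175-99467202, minus strand, in 5 peaks): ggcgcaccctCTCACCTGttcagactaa
Cdh20 (chr1:103001109-103001136, minus strand, in 5 peaks): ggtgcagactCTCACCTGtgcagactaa
Pcdh19 (chrX:133344744-133344771, plus strand, in 5 peaks): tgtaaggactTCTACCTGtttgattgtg
Cdh12 (chr15:21473308-21473335, minus strand, in 4 peaks): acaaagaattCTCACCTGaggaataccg
The first was present in peaks of Cdh8, Cdh11, Pcdh7, Pcdh17 and Pcdh19, and 25 of its 28 bases were identical to those around the Pcdh18 match. The second was present in peaks of Cdh8, Cdh11, Cdh19, Pcdh17 and Pcdh19. These peaks therefore share sequence with each other and are not independent examples of binding at cadherin genes. The other 2 peaks of Pcdh18 were centred on L1 elements (3.88 and 6.46).

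Position divided the family. Within 5 kb of the TSS lay 49 of the 108 peaks, 45.4% (36.3 to 54.8%), against 61.4% (60.6 to 62.1%) of the whole list. Outside the clusters this share was 24.7% (16.4 to 35.4%) of 77 peaks, and in the clusters 96.8% (83.8 to 99.4%) of 31. Distal peaks centred on a LINE made up 42 of the 108, or 38.9% (30.2 to 48.3%), against 14.1% (13.6 to 14.6%) of the list. Of the 42, 21 were on L1Md_T (50%, 35.5 to 64.5%) and 10 on L1Md_F2 elements (23.8%, 13.5 to 38.5%), beside 48.5 and 22.9% of the list's distal LINE peaks. The shares of these 2 kinds were close to those of the list, and the other kinds were not compared. The median LINE peak of the family lay 452 kb from the TSS, against 113 kb in the list. Beyond 500 kb lay 22 of the 108 peaks, or 20.4% (13.8 to 28.9%), against 2.06% (1.86 to 2.29%) of the list, and 19 of these 22 were on LINE and 3 on LTR elements. The family thus had a larger share of far peaks than the list, but the far peaks of the list were mostly on LINE elements as well (310 of 360).

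**Figure D2:**
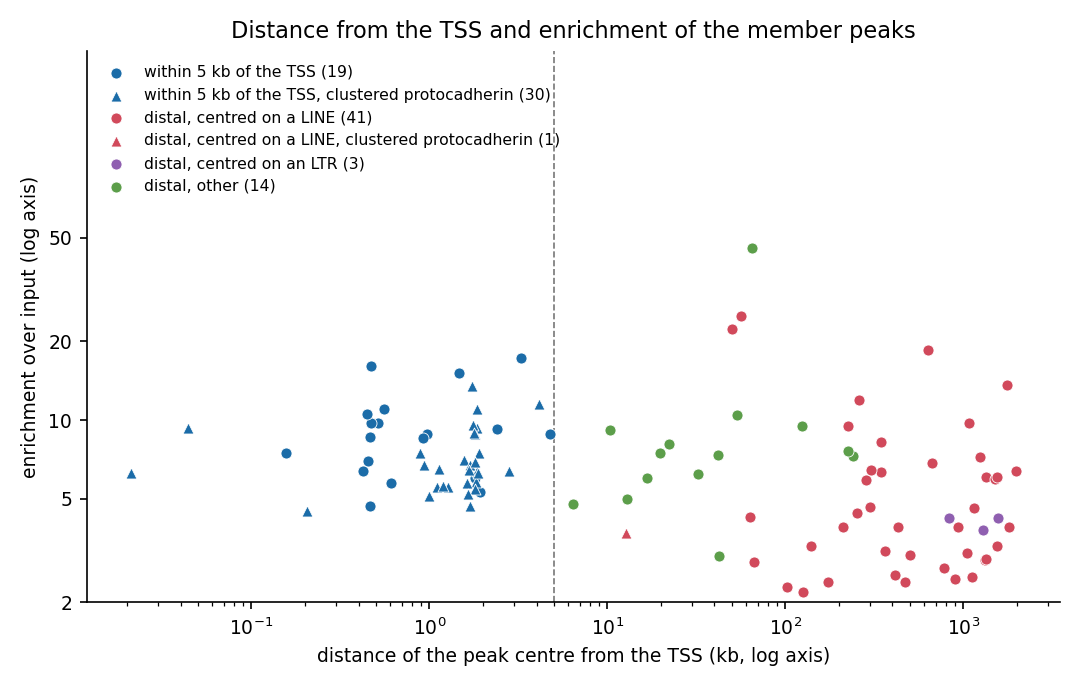
Distance of the peak centre from the TSS (kb, log axis) against enrichment over input (log axis) of the 108 peaks, with circles for genes outside and triangles for genes inside the protocadherin clusters; the dashed line marks 5 kb, and the 22 peaks beyond 500 kb are all on LINE or LTR elements.

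Many of the genes outside the clusters stand in wide intervals between coding genes, but others, such as Cdh3, Cdh16, Cdh24 and Pcdh12, do not. Whether this accounts for the shares was not tested, and the density of peaks is given as a description. The DNA nearer to a TSS of these 33 genes than to that of any other coding gene summed to 47.2 Mb, with a median of 1.16 Mb per gene and of 1.82 Mb for the type II genes, against 0.0490 Mb over all coding genes. For 106 of the 108 peaks the named gene also had the nearest coding TSS. Per Mb of this DNA there were 0.869 distal LINE peaks (exact 95% Poisson interval 0.624 to 1.179), against 0.901 (0.866 to 0.938) over the chromosomes. Distal peaks not centred on a retrotransposon were at 0.297 per Mb (0.162 to 0.498), against 1.42 (1.38 to 1.47). The Pcdh18 peak with 91.5% masked bases was counted among them, because the list gives no repeat at its centre. For the gene groups only peaks named for their genes were counted, while over the chromosomes every peak was. Peaks in this DNA that the list named for other genes, such as non-coding ones, are missing, so the family's densities can be too low. By this count LINE peaks were about as dense around these genes as elsewhere, while other distal peaks were sparser over the group as a whole. How many peaks were missed was not tested. Around the type II genes, the values were 1.17 LINE peaks per Mb (0.751 to 1.75) and 0.147 other distal peaks per Mb (0.0302 to 0.428). Other distal peaks were at 1.52 per Mb (0.414 to 3.90) around the type I genes, from 4 peaks that were all assigned to Cdh15. Around the other Cdh genes they were at 1.88 per Mb (0.387 to 5.48), from 3 peaks of Cdh13 and Cdh23. These 2 values rest on few genes and do not describe their groups.

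**Figure D3:**
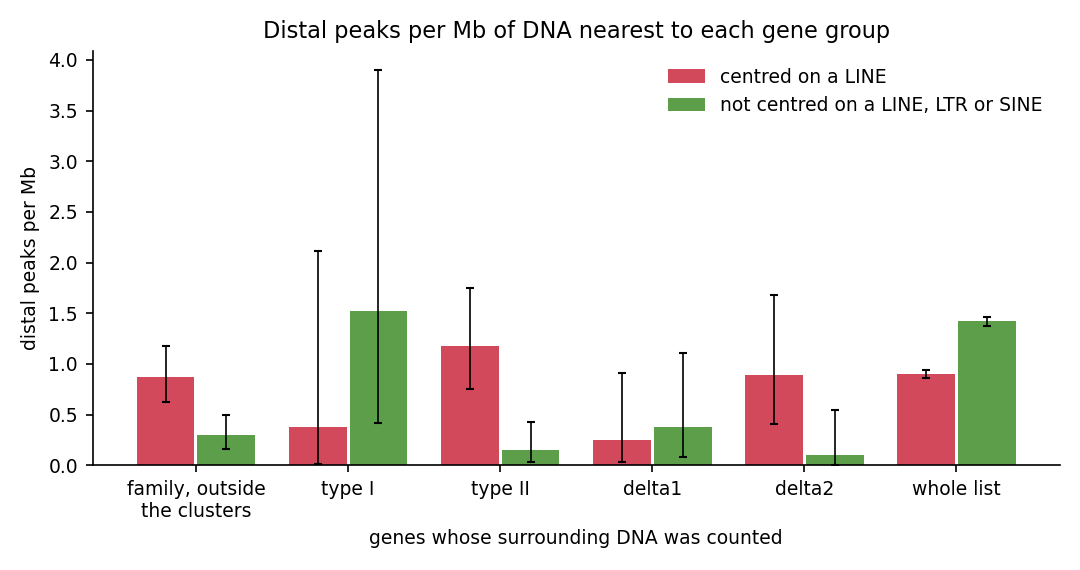
Distal peaks per Mb of DNA nearest to the genes of each group (bars) with exact 95% Poisson intervals, for peaks on a LINE and peaks whose centre the list places on no retrotransposon. Around the family outside the clusters LINE peaks are at 0.869 and other distal peaks at 0.297 per Mb, against 0.901 and 1.42 in the whole list. For the gene groups only peaks named for their genes are counted.

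The kinds of peak also differed in level. Enrichment had a median of 6.95 in the 49 promoter peaks, 4.08 in the 42 LINE peaks and 7.40 in the 14 other distal peaks, beside 6.74, 5.3 and 6.2 for the same kinds of peak in the whole list. Over all 108 peaks the median was 6.35, beside 6.5. The LINE peaks of the family had 10.6 input reads per kb at the median, against 6.97 in its promoter peaks, and 23.9 against 27.3 treatment reads per kb. They also held little unique sequence: a median of 24.96% of their 31-base words occurred once in the genome (1.42 to 63.9%), and of 13.4% in the 3 LTR peaks. The median was 100% (96.5 to 100%) in the 19 promoter peaks outside the clusters and 81.5% in the 30 clustered ones. Over all 49 promoter peaks it was 86.3% (35.0 to 100%). The authors kept uniquely aligned reads, and the part that sequence shared between elements plays in these values was not tested.

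In the clusters, which lie next to each other on chromosome 18, 28 of 58 genes had a peak, beside 53.3% of all protein-coding genes. In the alpha cluster 10 of 14 genes had one (71.4%, 45.4 to 88.3%). In the beta and gamma clusters 9 of 22 genes each had one (40.9%, 23.3 to 61.3%). The intervals include the share over all genes, so these counts are not a result about the clusters. Each gene has a variable exon of its own, whose coding part includes the extracellular part of the protein. In the beta cluster it is the only exon of the reference transcript, so it holds the whole coding sequence and the UTRs. The reference transcript matched to the Pcdhgb8 peak is non-coding, and its exon was counted with the others. A peak overlapped the variable exon of 27 of the 58 genes. The highest alpha peak, of Pcdha3 at chr18:36947001-36948900, had 53.4 and 8.14 reads and an enrichment of 13.5, 1743 bp from the TSS. The highest beta peak, of Pcdhb4 at chr18:37308551-37310050, had 42.5 and 8.5 reads and an enrichment of 11, 1845 bp from the TSS. The highest gamma peak, of Pcdhgb2 at chr18:37690901-37692350, had 43.8 and 9.8 reads and an enrichment of 9.54, 1766 bp from the TSS. All of these were centred in the coding part of the variable exon, and not at the start site.

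The distance from the exon start was nearly constant in the beta cluster and in most gamma exons, but not in the alpha cluster: of the 10 alpha centres, only those in Pcdha3 and Pcdha6 lay as far into the exon (1862 and 1700 bp). The 8 beta peaks were centred between 1797 and 1902 bp from the start of exons that were 2712 to 4714 bp long. Their distance to the end of the coding part was about as constant, at 644 to 762 bp. In the gamma cluster, 8 of the 10 centred peaks lay 1695 to 1874 bp from the exon start, and the other 2 lay 181 and 206 bp from the starts of Pcdhgb7 and Pcdhgb6, which had a peak at either place. The alpha peaks were mostly longer and reached from before the exon start to near its end or past it, with centres at a median of 1164 bp (247 to 1862 bp). A peak of Pcdha8 on an IAP element 4.12 kb upstream of its TSS (11.5) and one of Pcdhb1 on an L1 element 12.7 kb downstream (3.7) overlapped no variable exon.

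**Figure D4:**
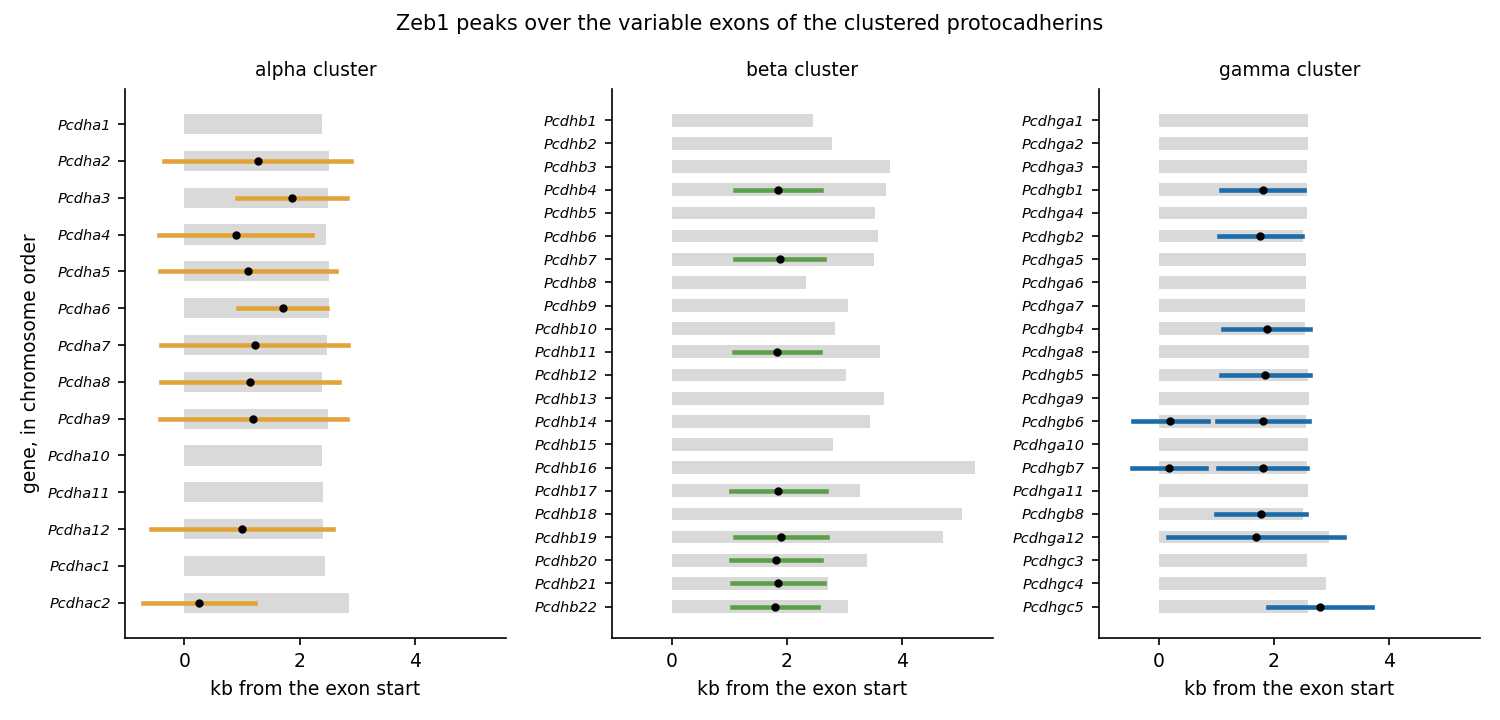
Variable exons of the 58 clustered protocadherin genes (grey bars, kb from the exon start, in chromosome order) with the Zeb1 peaks that overlap them (coloured lines, centres as black points); beta peaks are centred 1797 to 1902 bp from the exon start, and in the gamma cluster the Pcdhgb exons carry 9 of the 11 peaks.

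Within the gamma cluster the peaks followed the subgroup. All 7 Pcdhgb exons overlapped a peak, 9 peaks in all, with a highest enrichment per exon of 5.72 to 9.54, while of the 12 Pcdhga exons, which alternate with them along the chromosome, 1 did, that of Pcdhga12 (4.7). Of the 3 Pcdhgc exons, Pcdhgc5 overlapped a peak (6.4), centred past the exon in intron 1. The Pcdhgb exons had a median of 46.2 CpG per kb (39.7 to 55.2) against 31.2 (22.4 to 52.0) in the Pcdhga exons, and both had a similar GC content, 52.7 and 51.8%. Their 31-base words were less often unique, at a median of 77.5% (76.3 to 91.2%) against 97.5% (90.7 to 99.9%). The motif gave no such division, with a median of 2 matches per Pcdhgb exon and 2.5 per Pcdhga exon.

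Across the clusters no single one of the features measured over whole exons set the exons with a peak apart. Their median CpG content was 44.8 per kb against 26.8 in those without, but in the beta cluster the medians were 22.5 and 22.7 per kb. The beta exons also hold untranslated sequence, and CpG in their coding part alone was not compared. Unique words were at 81.3 and 92.2%, but the clusters differed. The medians were 80.28 and 77.75% in the alpha, 87.85 and 90.13% in the beta and 80.81 and 97.94% in the gamma cluster. A motif match was held by 26 of the 27 exons with a peak and 30 of the 31 without. The exons of a cluster are related to each other and differ in how much sequence they share, and the part of shared sequence in where peaks were called was not tested.

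**Figure D5:**
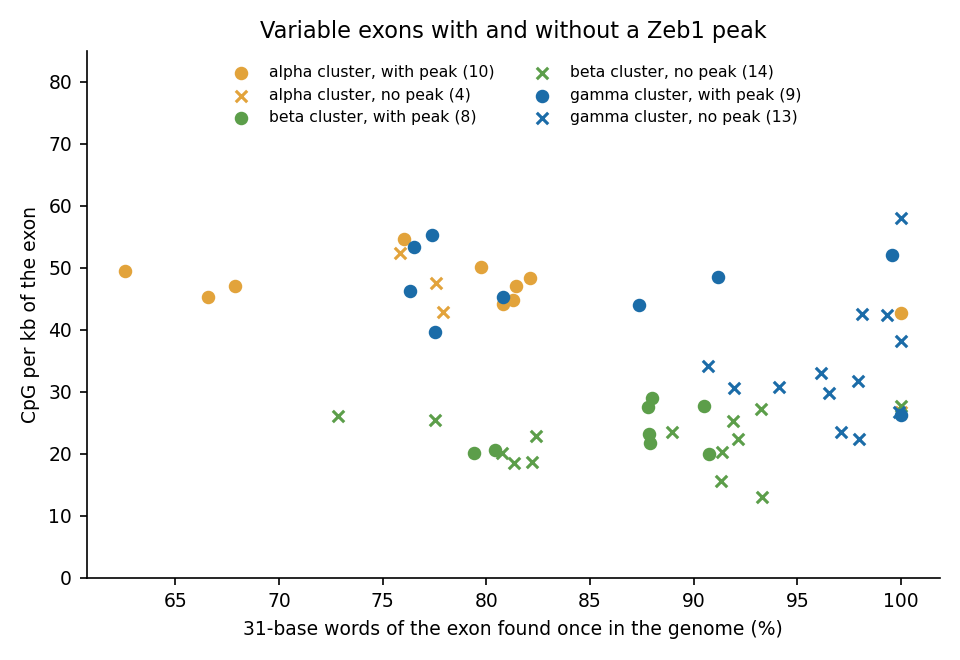
CpG per kb of each variable exon against the percentage of its 31-base words that occur once in the genome, for the 58 clustered genes, with points for exons that overlap a Zeb1 peak and crosses for those that do not; Pcdhgb exons with a peak have 76.3 to 91.2% unique words, and Pcdhga exons 90.7 to 99.9%.

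A Zeb1 motif match was present in 83 of the 108 peaks, 76.9% (68.1 to 83.8%), beside 76.8% (76.2 to 77.4%) of the whole list and 73.6% of the list's 11890 peaks with lengths of 1300 to 2350 bp, the middle range of the family. By position, a match was present in 87.8% (75.8 to 94.3%) of the promoter peaks, beside 76.8% of all promoter peaks, and in 59.5% (44.5 to 73.0%) of the LINE peaks, beside 72.7% of all distal LINE peaks. Promoter peaks outside the clusters were at 84.2% (62.4 to 94.5%), beside 84.5% of list peaks in their middle length range. Those in the clusters, where exons share sequence, were at 90% (27 of 30). For LINE peaks the list was at 69.8% in the middle length range. Within 200 bp at the peak centre the share was 12.96%, beside 16.7% in the list.

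Genes that work with cadherins were counted in the same way. Of 15 catenins and junction partners, 11 had a promoter peak, among them Ctnnb1, or beta-catenin (enrichment 6.2), Ctnna1, or alpha-catenin (7.08), Jup, or plakoglobin (10.3), Arvcf (10.8) and Nectin1 (14.1), while Ctnnd1, or p120-catenin, Ctnna2 and Nectin4 had no peak. Of the 9 desmosomal cadherins, Dsc2 (7.6) and Dsg2 (6.96) had a promoter peak. Of the 18 giant, seven-pass and other cadherin-repeat genes, 8 had one, including Celsr1, Celsr2 and Celsr3, the planar polarity cadherins (9.03, 6.41 and 10.1), and Fat4 (9.89). Of the 8 regulators of the clustered protocadherins, 6 had one: Ctcf (5.79), Rad21 (9.33), Smc3 (5), Wiz (9.77), Smchd1 (7.83) and Dnmt3b (11.9). The shares of these lists were 73.3% (48.0 to 89.1%), 22.2% (6.32 to 54.7%), 44.4% (24.6 to 66.3%) and 75% (40.9 to 92.8%), beside 45.1% of protein-coding genes. All but the first of these intervals include the share over all genes, and these lists are small.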

How the data were processed

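Per the labels and the paper's methods, Ion Torrent reads were trimmed by the authors, a fixed number was drawn for each library, and unique alignments to mm10 were made with STAR 2.4.2a; the authors then removed duplicates with Picard 1.136, called broad peaks against the input with PeakRanger and annotated them with Homer 4.7. A peak needed 20 or more treatment reads, an enrichment of at least 2 and a false discovery rate within the authors' limit. Peaks over blacklisted regions were left out by the authors. The deposited read columns are a signal, the mean treatment or input reads per peak, and the deposited enrichment is a ratio. The deposited p-value, which is 0 throughout the 17435 rows, played no part. The number of aligned reads per library is not given in the sources used here.

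The members and lists were chosen with earlier results of these data known. Named in full were the 6 peaks of highest enrichment, the 4 genes with the most peaks (alphabetical order among ties at 5), 8 chosen genes and the highest peak of each cluster; other genes are given in brief. The densities per Mb, the unique words, the sequences shared by L1 peaks and the comparisons of variable exons, among them Pcdhgb with Pcdhga, were chosen after the values were seen. The legend of the deposited list calls positive distances upstream, but 107 of the 108 peaks have the sign of the reference when positive is read as downstream, which was used for every upstream and downstream in the text. Genes were matched by Entrez identifier to 45756 curated RefSeq transcripts of GRCm38.p6. No test was made over members, since peaks of 1 pooled list are not replicates. The counting steps were tested on simulated data. Scripts ran on Python 3.11.15 with matplotlib 3.10.9, pysam 0.24.0, pandas 2.3.3, SciPy 1.17.1 and NumPy 2.4.6.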

Additional observations from a re-analysis of the deposited data

How the results depend on the processing

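Of 25 alternatives to the 6 main values, 14 stayed within the range set for each value, although some of these changed the counts. With peaks over the gene body and 5 kb on either side, 71 of the 91 genes had a peak in place of 55, and 80 peaks were counted in place of 108. With any peak within 5 kb of a curated TSS, 52 genes had a promoter peak in place of 45. With enrichment of at least 5, 75 peaks remained. No share over all genes was set beside these counts. The 11 alternatives outside their range were the following, and their cause was not tested except where the construction of the alternative shows it. Without peaks centred on a LINE, LTR or SINE, chosen after seeing the data, 62 of the 108 peaks remained, the share within 5 kb of the TSS was 77.4% and the median enrichment 7.17. The whole list was then at 73.2% within 5 kb, so the family's share was no longer below the list's; with at most 50% masked bases, also chosen after seeing the data, 60 peaks remained. Outside the clusters, again chosen after seeing the data, the share within 5 kb was 24.7%. With 1 peak per gene it was 70.9% and the median enrichment 7.45. With enrichment of at least 5 the share within 5 kb was 61.3% and the share with a motif match 88%; in the whole list these were 67.1 and 79.4%. Within 1 kb of the TSS, 19 genes had a promoter peak in place of 45 (20.9% beside 41.1% of protein-coding genes; 17.6% of the family's peaks beside 52.2% of the list's), since most peaks of the clustered genes lie between 1 and 5 kb. The motif share fell to 12.96% in 200 bp at the peak centre. Leaving out each Zeb1 ChIP replicate needs values per library and was not run. No paired analysis was possible because the values come from 1 pooled list with no test. Ratios over small input values are imprecise, and the effect of depth was not tested.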
